A study of Mus musculus with 10 samples.

Results

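The G1 regulators described here are 10 mouse genes that set whether a cell leaves the G1 phase of its cycle: the D cyclins Ccnd1, Ccnd2 and Ccnd3, their kinases Cdk4 and Cdk6, the kinase inhibitors Cdkn1a, Cdkn1b, Cdkn1c and Cdkn2b, and the growth transcription factor Myc. They were picked by name, and each was found by its Ensembl ID among the 49671 rows of the count table that name a gene. RNA was sequenced from wild-type C57BL/6 mouse mast cells raised from bone marrow (BMMCs), that is, marrow cells grown with interleukin-3 (IL-3) until they become mast cells, with an age of 6 to 8 weeks on the labels. All 6 groups carried IL-3, at 5 ng/mL by the protocol for growth and at 10 ng/mL by the source label, so none shows cells without a growth factor.

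Transforming growth factor beta (TGF-β) was given for 72 h at 10 ng/mL with SCF (2 libraries), at 1 ng/mL with SCF (2), at 10 ng/mL without SCF (1) and at 1 ng/mL without SCF (1). The controls had 100 ng/mL SCF for 72 h (2 libraries) or IL-3 alone, with no time on its label (2). SCF is stem cell factor, the ligand of the receptor Kit; its dose in the combined groups is not on the labels. The cells were cultured from marrow and are neither a line nor sorted tissue mast cells. Whether libraries that share a group stem from separate cultures is not on the labels, so every p-value below measures the spread between these samples, which may be technical. The tests estimate that spread in part from all genes together. With counts per gene summing to 1237382 to 2323916 per library, a count of 3 was worth 1.26 to 2.52 CPM (reads scaled to a common library total, here with edgeR's TMM factors), and such floors cover counting error only. All 8 mast cell markers had counts in these libraries, with Kit at 3073 to 5041 CPM and Fcer1a, a chain of the IgE receptor, at 5453 to 10951 CPM. Of the other cell types checked, the summed levels were 11.9 to 20.1 CPM for 5 macrophage genes and at most 1.68 CPM for 5 neutrophil genes, with S100a8 and S100a9 at 0 throughout. They were at most 7.72 CPM for 5 erythroid and platelet genes, at most 3.86 CPM for 5 fibroblast genes with Col1a2 and Col3a1 at 0, and 1809 to 2441 CPM for 4 basophil genes, nearly all of it from Itga2b and Cd200r3. Transcripts that answer TGF-β signalling checked the labels: Skil, a feedback inhibitor of SMAD proteins, averaged 88.6 CPM in the 4 libraries with SCF and TGF-β and 6.68 CPM in the 2 SCF libraries, and 114 CPM in the 2 TGF-β libraries and 13.6 CPM in the 2 IL-3 libraries.

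D cyclins bind Cdk4 or Cdk6, and the active kinase phosphorylates the retinoblastoma protein, which frees E2F factors to switch on the genes of DNA replication. The Cdkn2 inhibitors bind Cdk4 and Cdk6 directly, whereas Cdkn1a (p21), Cdkn1b (p27) and Cdkn1c (p57) bind cyclin and kinase complexes, and Cdkn1b is set largely by protein stability, which RNA does not report. In epithelial cells TGF-β is known for a G1 arrest in which Cdkn2b (p15) and Cdkn1a transcripts go up and Myc goes down. The question put to these libraries was whether the same transcripts moved that way in mast cells, with and without SCF, a mast cell growth factor. RNA was measured in bulk, so a lower value can mean fewer cells that hold a transcript or less of it in each cell, which cannot be told apart.

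Promoter windows of 250 bases that end just before a gene's start are given for 4 of the 6 members matched in the RefSeq table: Cdkn2b and Cdkn1a as the inhibitors of the textbook pattern, Ccnd3 as an abundant D cyclin, and Cdk4 as the kinase gene with the most E-boxes. Ccnd1, Ccnd2, Cdkn1c and Myc were not matched. They are RefSeq sequences of build GRCm38.p6, written 5′ to 3′ in the direction of the gene: Ccnd3 at chr17:47504801-47505050 on the plus strand (the first of its 2 listed starts), Cdkn1a at chr17:29093519-29093768 on the plus strand (the second of 2), Cdkn2b at chr4:89311033-89311282 on the minus strand, and Cdk4 at chr10:127063285-127063534 on the plus strand. Capitals mark an E-box (CACGTG, the letters Myc and its partners bind), an Sp1 box (GGGCGG) or a SMAD box (CAGAC), each searched on both strands.
Ccnd3: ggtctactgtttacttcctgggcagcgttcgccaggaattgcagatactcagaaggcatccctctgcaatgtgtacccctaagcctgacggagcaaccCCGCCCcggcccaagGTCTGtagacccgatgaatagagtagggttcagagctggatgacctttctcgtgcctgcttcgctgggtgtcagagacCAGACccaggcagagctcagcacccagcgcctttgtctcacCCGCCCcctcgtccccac
Cdkn1a: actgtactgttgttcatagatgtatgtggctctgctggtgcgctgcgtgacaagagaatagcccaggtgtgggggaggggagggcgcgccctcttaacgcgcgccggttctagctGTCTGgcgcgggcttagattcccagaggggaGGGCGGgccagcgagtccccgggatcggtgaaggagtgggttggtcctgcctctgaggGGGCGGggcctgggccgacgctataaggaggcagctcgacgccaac
Cdkn2b: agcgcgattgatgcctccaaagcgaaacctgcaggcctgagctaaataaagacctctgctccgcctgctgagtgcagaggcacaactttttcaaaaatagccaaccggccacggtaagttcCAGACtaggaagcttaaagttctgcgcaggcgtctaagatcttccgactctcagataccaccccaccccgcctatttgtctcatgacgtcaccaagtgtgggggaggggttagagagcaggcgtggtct
Cdk4: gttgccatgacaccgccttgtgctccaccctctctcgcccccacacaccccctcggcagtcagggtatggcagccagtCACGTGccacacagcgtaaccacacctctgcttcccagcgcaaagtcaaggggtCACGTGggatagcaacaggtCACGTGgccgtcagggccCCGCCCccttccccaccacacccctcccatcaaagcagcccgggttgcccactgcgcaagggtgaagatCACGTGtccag
The Cdk4 window held 4 E-boxes and 1 Sp1 box, where 6.02% of 32851 promoter windows of that length held any E-box. Cdk4 was chosen for its E-boxes, so that share is given for reference and tests nothing. The Cdkn2b window held 1 SMAD box and no Sp1 box, the Cdkn1a window 1 SMAD box and 2 Sp1 boxes, and the Ccnd3 window 2 of each. These counts depend on the start: the window of the second Ccnd3 start held 0 SMAD boxes and 1 Sp1 box, and that of the first Cdkn1a start 1 SMAD box and 0 Sp1 boxes. SMAD boxes were found in 42.2% and Sp1 boxes in 32.7% of all windows, so these matches are common letters and describe the windows only.

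**Figure D1:**
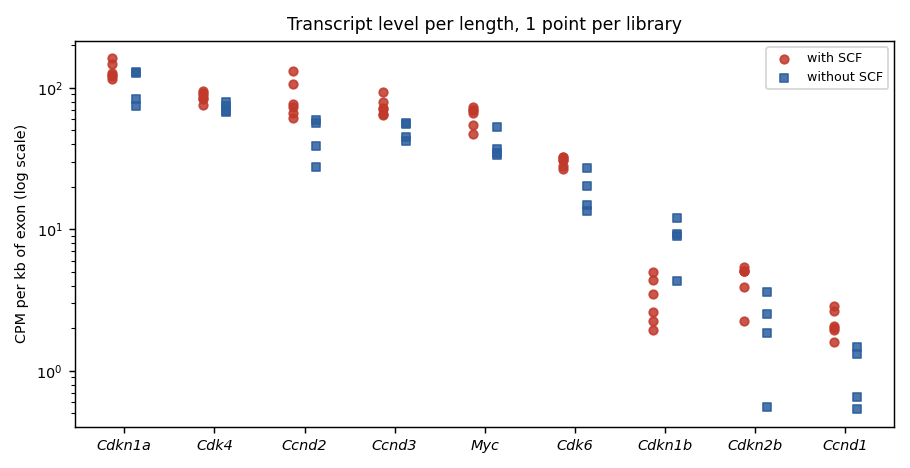
Level of each member in CPM per kb of exon (log axis), 1 point per library, for the 6 libraries with SCF (red circles) and the 4 without (blue squares); Cdkn1c, with 1 read in all, is not drawn. Cdkn1a, Cdk4, Ccnd2, Ccnd3 and Myc averaged 121 to 53.9 CPM per kb, Cdk6 25.7, and the other 3 drawn stood at 5.43 or less.

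Divided by exon length, the members fell into 3 ranges. Means over the 10 libraries were 121 CPM per kb for Cdkn1a, 80.9 for Cdk4, 69.8 for Ccnd2, 64.5 for Ccnd3 and 53.9 for Myc, with 25.7 for Cdk6 below them. Cdkn1b averaged 5.43 CPM per kb, Cdkn2b 3.54 and Ccnd1 1.71. Between neighbours in this order, the library ranges of Cdkn1a, Cdk4, Ccnd2, Ccnd3 and Myc overlapped each with the next, as did those of Cdkn1b, Cdkn2b and Ccnd1, while Cdk6 overlapped neither Myc above it nor Cdkn1b below it. The D cyclin pool was mostly Ccnd2, with 37.1 to 58.0% of the summed CPM per kb of the 3 genes, and Ccnd3, while Ccnd1 made up 0.583 to 1.78%.

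Cdkn1c, the p57 inhibitor, had 1 read in an IL-3 library (replicate 1) and 0 in the other 9 libraries, so it was not tested, and no level above the floor of 1.26 to 2.52 CPM was seen in any of them. The other 9 members passed the filter on low counts and were tested with 11247 genes in all.

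Ccnd2, an abundant D cyclin, was the member that TGF-β lowered both with and without SCF. With SCF it stood at 998 and 1248 CPM at 0 ng/mL TGF-β, at 625 and 724 CPM at 1 ng/mL and at 575 and 685 CPM at 10 ng/mL. Without SCF it stood at 531 and 558 CPM at 0 ng/mL, 367 CPM at 1 ng/mL and 258 CPM at 10 ng/mL. In both series every library with TGF-β was below every library without it. The 4 libraries with SCF and TGF-β averaged 652 CPM and the 2 SCF libraries 1123 CPM, a log2 fold change of -0.79 ± 0.12 (SE; edgeR quasi-likelihood test, Benjamini-Hochberg adjusted p = 0.000341). Taken by dose against the same 2 SCF libraries, which both doses share, the change was -0.74 ± 0.14 at 1 ng/mL (adjusted p = 0.00499) and -0.83 ± 0.14 at 10 ng/mL (adjusted p = 0.00112). The call at 1 ng/mL was lost without SCF replicate 2 (log2 -0.56, adjusted p = 0.0793) and without the first 1 ng/mL library (-0.62, 0.0743); over the 10 fits that left out 1 library each, its adjusted p ran from 0.00491 to 0.0793. At 10 ng/mL and for both doses together the call held in all 10 such fits.

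Without SCF, Ccnd2 averaged 312 CPM in the 2 TGF-β libraries and 544 CPM in the 2 IL-3 libraries (log2 -0.82 ± 0.15, edgeR adjusted p = 0.00385). This comparison averages the 2 doses without SCF, each from 1 library. Its error comes from the groups with 2 libraries, so the spread between these 2 TGF-β libraries is not in it. The result rests in part on the 10 ng/mL library: without that library the change was -0.57 and the call was lost. That fit compares 1 ng/mL alone with IL-3, so dose and library cannot be told apart in it. The fold changes with and without SCF differed by 0.04 (95% interval -0.37 to 0.45) in the interaction test. That test compares the TGF-β effect with SCF against the effect without. With SCF a single member, Ccnd2, was called out of 9 tested at each dose and for both doses together. At 1 ng/mL 4.64% of all genes were called (2.75% lower), at 10 ng/mL 8.36% (4.58% lower) and for both doses 9.26% (5.34% lower), so 1 called member of 9 is near the share of all genes.

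**Figure D2:**
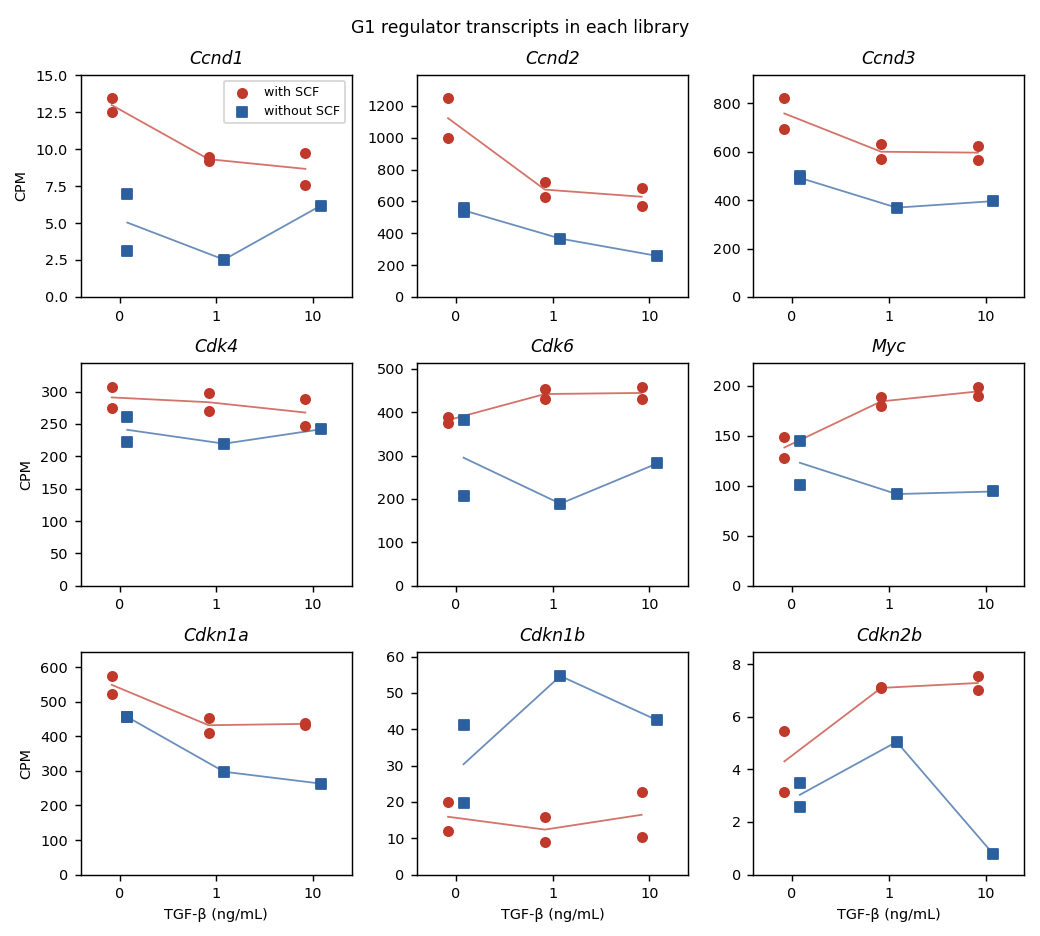
CPM of 9 members in every library against TGF-β dose (0, 1 and 10 ng/mL, evenly spaced), with SCF (red circles) and without (blue squares); lines join group means and carry no error. Ccnd2 and Cdkn1a lie lower in each library with TGF-β than in any without it in both series, and with TGF-β Myc stood at 180 to 199 CPM in the 4 libraries with SCF and at 91.7 and 94.2 CPM in the 2 without.

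Ccnd3, the other abundant D cyclin, was lower in each library with TGF-β but did not pass the threshold. With SCF it stood at 696 and 821 CPM at 0 ng/mL, 569 and 631 CPM at 1 ng/mL and 568 and 625 CPM at 10 ng/mL. Without SCF it stood at 487 and 498 CPM at 0 ng/mL, 369 CPM at 1 ng/mL and 396 CPM at 10 ng/mL. Libraries with and without TGF-β did not overlap in either series, but the log2 changes of -0.34 ± 0.11 with SCF (edgeR adjusted p = 0.0701) and -0.36 ± 0.14 without (adjusted p = 0.181) were not called. A fit with replicate number as a block called both (adjusted p = 0.00791 and 0.0361), the only 1 of 14 alternatives that called either. The numbers are not known to mark shared cultures.

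Ccnd1, the least abundant D cyclin, stood at 13.4 and 12.5 CPM with SCF at 0 ng/mL TGF-β, 9.20 and 9.44 CPM at 1 ng/mL and 9.77 and 7.55 CPM at 10 ng/mL. Its summed reads were 74 in the 4 libraries with SCF and TGF-β and 47 in the 2 SCF libraries, a depth-scaled ratio of 0.693 (95% exact interval from the counts alone, 0.475 to 1.02). Without SCF it had 3 reads at 1 ng/mL and 8 at 10 ng/mL TGF-β, against 16 in the 2 IL-3 libraries, too few to show a change at this depth.

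The make-up of the D cyclin pool differed between the groups as well. Per exon length, Ccnd2 made up 56.4 and 58.0% of the pool with SCF at 0 ng/mL TGF-β, 49.9 and 51.0% at 1 ng/mL, and between 47.8 and 51.0% in all 4 libraries with TGF-β. The summed level of the 3 genes was 188 and 229 CPM per kb at 0 ng/mL, 133 and 151 CPM per kb at 1 ng/mL, and 128 and 146 CPM per kb at 10 ng/mL. Without SCF the Ccnd2 share was 50.1 and 50.5% at 0 ng/mL, 47.8% at 1 ng/mL and 37.1% at 10 ng/mL, the lowest of all libraries. The summed pool without SCF was 113 and 118 CPM per kb at 0 ng/mL, 81.6 at 1 ng/mL and 73.9 at 10 ng/mL.

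The kinase genes showed no called change with TGF-β. Cdk4 ranged only from 219 to 307 CPM over all 10 libraries, and its log2 change with TGF-β was -0.08 with SCF (95% interval -0.34 to 0.18) and -0.07 without (-0.38 to 0.25). Cdk6 with SCF stood at 374 and 389 CPM at 0 ng/mL, 430 and 454 CPM at 1 ng/mL and 458 and 431 CPM at 10 ng/mL. These libraries did not overlap between treated and untreated cells, yet the change of 0.22 (interval -0.14 to 0.57) was not called. In the libraries without SCF, Cdk6 stood at 383 and 208 CPM at 0 ng/mL, 189 CPM at 1 ng/mL and 282 CPM at 10 ng/mL. The 2 IL-3 libraries were far apart, and the log2 change with TGF-β, -0.36 ± 0.20, became 0.15 without IL-3 replicate 1 and a called -0.72 without IL-3 replicate 2 (edgeR adjusted p = 0.0271, in a range of 0.0271 to 0.940).

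Among the inhibitors, Cdkn1a, which also answers p53, was lower and not higher with TGF-β. With SCF it stood at 575 and 523 CPM at 0 ng/mL, 454 and 411 CPM at 1 ng/mL and 433 and 439 CPM at 10 ng/mL. Without SCF it stood at 455 and 458 CPM at 0 ng/mL, 298 CPM at 1 ng/mL and 263 CPM at 10 ng/mL. All libraries with TGF-β lay below those without it in each series. Without SCF the mean was 281 CPM in the 2 TGF-β libraries and 456 CPM in the 2 IL-3 libraries, and the log2 change of -0.70 ± 0.13 was called (edgeR adjusted p = 0.00493). That call was lost without the 10 ng/mL library (log2 -0.61), in a fit that holds 1 ng/mL as the only dose without SCF. With SCF, the means were 434 CPM in the 4 libraries with SCF and TGF-β and 549 CPM in the 2 SCF libraries, and the change of -0.34 ± 0.11 missed the threshold (adjusted p = 0.0635). Its interval of -0.57 to -0.11 does not reach a rise. In the fit with the replicate block it was called with SCF (adjusted p = 0.0113), the only 1 of 14 alternatives that did so. Cdkn1a and Ccnd2 were the members called without SCF, 2 of 9, both lower, against 3.48% of all genes called in either direction and 2.13% called lower.

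Cdkn2b, the p15 inhibitor of Cdk4 and Cdk6, had 92 reads in the 10 libraries together. With SCF it stood at 5.47 and 3.13 CPM at 0 ng/mL, 7.11 and 7.08 CPM at 1 ng/mL and 7.55 and 7.01 CPM at 10 ng/mL. All 4 libraries with SCF and TGF-β were above both SCF libraries. The summed reads were 59 with SCF and TGF-β and 16 with SCF alone, a depth-scaled ratio of 1.62 with a 95% exact counting interval of 0.922 to 3.02. The edgeR change of 0.70 ± 0.45 was not called (adjusted p = 0.423). Without SCF it stood at 2.57 and 3.49 CPM at 0 ng/mL, 5.05 CPM at 1 ng/mL (6 reads) and 0.772 CPM at 10 ng/mL (1 read, below the floor of 2.32 CPM). With 7 reads in the 2 TGF-β libraries and 10 in the 2 IL-3 libraries, a change was not detectable at this depth (ratio 0.951, counting interval 0.307 to 2.77).

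Cdkn1b, the p27 inhibitor, differed more between libraries of a group than with TGF-β in the SCF series. With SCF it stood at 19.9 and 11.9 CPM at 0 ng/mL, 15.9 and 8.85 CPM at 1 ng/mL and 22.6 and 10.3 CPM at 10 ng/mL. Replicate 1 was above replicate 2 in each of these 3 groups, and the log2 change with TGF-β was -0.14 (95% interval -0.94 to 0.65). Without SCF it stood at 19.6 and 41.2 CPM at 0 ng/mL, 54.7 CPM at 1 ng/mL and 42.5 CPM at 10 ng/mL. Both TGF-β libraries were above both IL-3 libraries, although the 10 ng/mL library and IL-3 replicate 2 were almost level, and the change of 0.70 ± 0.37 was not called (edgeR adjusted p = 0.378).

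Myc stood on different sides of its controls in the 2 series. With SCF it was at 127 and 149 CPM at 0 ng/mL, 189 and 180 CPM at 1 ng/mL and 199 and 190 CPM at 10 ng/mL. Without SCF it was at 145 and 101 CPM at 0 ng/mL, 91.7 CPM at 1 ng/mL and 94.2 CPM at 10 ng/mL. All 4 libraries with SCF and TGF-β were above both SCF libraries, and both TGF-β libraries without SCF were below both IL-3 libraries. Neither difference was called: the log2 change was 0.46 ± 0.15 with SCF (interval 0.15 to 0.77, edgeR adjusted p = 0.0623) and -0.41 ± 0.18 without (interval -0.80 to -0.03, adjusted p = 0.281). The difference with SCF sat at the threshold: it was called without a filter on low counts (adjusted p = 0.0316), with the replicate block (0.0208), and without either IL-3 library (0.0326 and 0.0364), in a range of 0.0326 to 0.401 over the 10 fits that left out 1 library.

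**Figure D3:**
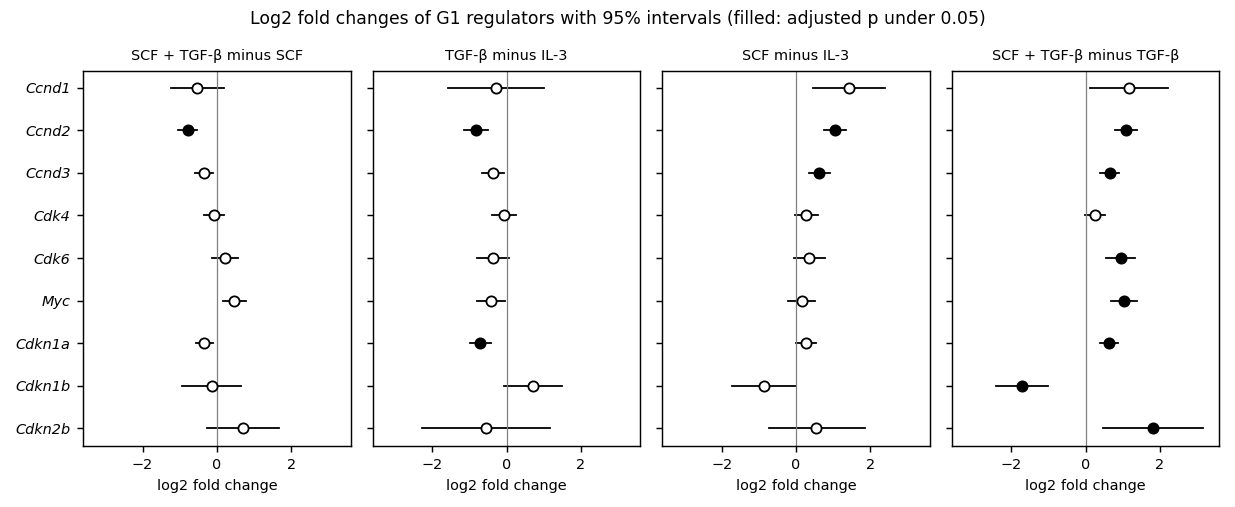
Log2 fold change of each member with its 95% interval (horizontal line) in 4 comparisons, each panel titled by the difference it shows; filled points have an edgeR adjusted p under 0.05. Ccnd2 is filled in all 4, Cdkn1a in 2, and in the last panel 7 of 9 are filled.

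The difference between the 2 TGF-β effects was tested as an interaction. For Myc it was 0.87 ± 0.24 on the log2 scale (95% interval 0.37 to 1.37), the largest relative to its error among the members, but it was not called after adjustment over all genes (edgeR adjusted p = 0.202). It was called in the fit without a filter on low counts (adjusted p = 0.0391). It stayed between 0.59 and 1.09 whichever library was left out, with adjusted p from 0.108 to 0.542. No member was called, against 0.293% of all genes, and DESeq2 called 0 members too. Of the 9, 3 members (Myc, Cdk6 and Cdkn1a) had an unadjusted p under 0.05, against 9.15% of genes. The interaction was 0.58 for Cdk6 (interval 0.02 to 1.14) and 0.37 for Cdkn1a (0.00 to 0.73).

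The 2 doses of TGF-β with SCF gave like values. No member was called between 10 and 1 ng/mL, against 0.0178% of all genes, and no member had an unadjusted p under 0.05, against 2.77% of genes. DESeq2 called 0 members and 0 genes. Log2 differences (10 minus 1 ng/mL) were -0.10 for Ccnd2 (95% interval -0.40 to 0.21), 0.01 for Cdkn1a (-0.26 to 0.28) and 0.08 for Myc (-0.27 to 0.42). For Cdkn2b the interval was -0.94 to 1.02, wide enough to hold a change of nearly the size of 1 log2 unit.

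Mast cell markers moved in the same comparisons. When TGF-β was added to SCF, 4 of 8 fell (Hdc by -1.93, Cpa3 by -1.14, Fcer1a by -0.77 and Kit by -0.42 on the log2 scale), where 5.34% of all genes were called lower. Without SCF Hdc, Cpa3 and Fcer1a fell and Tpsb2 rose, where 2.13% of all genes were called lower and 1.35% higher. Of 4 basophil and 2 tested macrophage genes 0 were called in either comparison by edgeR or DESeq2 (1 basophil gene in each at an unadjusted p under 0.05). With SCF that gene was Mcpt8, with a log2 change of 1.37 ± 0.43 just short of the threshold (edgeR adjusted p = 0.0552). The part of such shifts in the values of the members was not tested.

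Set against the epithelial pattern, then, the transcript directions differed by gene. Over both doses with SCF, 7 of 9 tested members did not overlap between the 4 libraries with SCF and TGF-β and the 2 SCF libraries, against 31.2% of all genes (15.4% higher, 15.7% lower): Cdk6, Cdkn2b and Myc were higher in each, and Ccnd1, Ccnd2, Ccnd3 and Cdkn1a lower. Without SCF, 5 of 9 did not overlap, which is near the 44.1% of all genes (21.8% higher, 22.3% lower). Cdkn1b was higher, and Ccnd2, Ccnd3, Cdkn1a and Myc lower, and on their own these directions describe the libraries only. Of the members named here, Ccnd2 passed the test in both series and Cdkn1a without SCF, as given above.

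Ccnd2 and Ccnd3 were higher with SCF than with IL-3 alone. Ccnd2 averaged 1123 ± 176 CPM with SCF and 544 ± 19.1 CPM with IL-3 (SD, n = 2 each), a log2 fold change of 1.04 ± 0.15 (SE; edgeR adjusted p = 0.000283). Ccnd3 averaged 758 ± 88.3 CPM with SCF and 492 ± 8.02 CPM with IL-3 (SD, n = 2 each), a change of 0.62 ± 0.13 (adjusted p = 0.00791), which was lost without IL-3 replicate 2 (0.65, adjusted p = 0.0623) and without SCF replicate 2 (0.51, 0.0996), in a range of 0.00730 to 0.0996. These were the 2 members of 9 called, both higher, against 9.18% of all genes (5.71% higher). Ccnd1 had 47 reads with SCF and 16 with IL-3, a depth-scaled ratio of 2.75 (95% exact counting interval 1.53 to 5.19). Its change of 1.42 ± 0.46 just missed the threshold (edgeR adjusted p = 0.0626), and 2 of 13 alternatives called it, among them the replicate block (edgeR adjusted p = 0.0442). In the same comparison 3 of 8 mast cell markers were called (Tpsb2 1.07 and Cpa3 0.69 higher, Mitf -0.61 lower on the log2 scale) and 2 of 4 basophil markers (Mcpt8 2.80 higher, Prss34 -2.10 lower; DESeq2 called 0 of the 4). The summed basophil markers, nearly all Itga2b and Cd200r3, were at 2203 and 2441 CPM with SCF and 2111 and 2252 CPM with IL-3. Within that sum Mcpt8 averaged 6.61 CPM with SCF and 0.955 CPM with IL-3, and Prss34 3.44 and 14.6 CPM. The part of these shifts in the values of the members was not tested. The value of Cdk6 depended on a library: 0.36 ± 0.20 with all, but 0.88 and called without IL-3 replicate 1 (adjusted p = 0.00638, in a range of 0.00638 to 0.987).

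With TGF-β in both groups, more members differed by SCF. In the 4 libraries with SCF and TGF-β against the 2 with TGF-β alone, 7 of 9 tested members were called, against 24.7% of all genes (13.4% higher, 11.4% lower), and none of the 9 overlapped, against 47.3% of genes. Ccnd2 (log2 1.08 ± 0.14), Ccnd3 (0.65 ± 0.12), Cdk6 (0.94 ± 0.18), Cdkn1a (0.63 ± 0.12), Myc (1.03 ± 0.16) and Cdkn2b (1.81 ± 0.64) were higher with SCF, with edgeR adjusted p from 2.85e-05 for Ccnd2 to 0.0483 for Cdkn2b. Cdkn1b was lower, at 8.85 to 22.6 CPM in the 4 libraries with SCF and TGF-β, against 54.7 and 42.5 CPM with TGF-β alone (log2 -1.71 ± 0.33, edgeR adjusted p = 0.00128). In these comparisons SCF also went with the share of counted reads that fell in genes, 23.2 to 26.6% in the 6 libraries with SCF and 16.4 to 23.0% in the 4 without, and with called markers: Mcpt8 (2.31) and Cd200r3 (0.44) were higher among 4 basophil genes, and of 8 mast cell genes Cpa3 (0.64) was higher and Kit (-0.34) lower. The part of the read share and of these markers in the results was not tested. The Cdkn2b call rests on 59 reads with SCF and TGF-β and 7 with TGF-β alone (ratio 2.56, exact counting interval 1.17 to 6.63) and was kept in 2 of the 10 fits without 1 library and lost in DESeq2 (adjusted p = 0.251). Cdk6 lost its call without the 1 ng/mL library of TGF-β alone (0.65, adjusted p = 0.0820, in a range of 6.79e-05 to 0.0820), and the other 5 kept theirs in all 10 fits.

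Downstream of the D cyclin kinases, 16 E2F target genes were compared, mostly of DNA replication but with Ccna2 and Mki67 among them. They moved against the Ccnd2 transcript when TGF-β was added to SCF. Of 16 such genes tested, 12 rose and 0 fell in the libraries with SCF and TGF-β against SCF alone, with a median log2 change of 0.78, where the median of all genes was 0.00 and 3.92% of all genes were called higher. Mki67, the proliferation marker Ki-67, averaged 125 ± 8.17 CPM in the 4 libraries with SCF and TGF-β and 57.2 ± 8.49 CPM in the 2 SCF libraries (SD), a change of 1.13 ± 0.19 (edgeR adjusted p = 0.000629). Tyms, which makes thymidylate for DNA, changed by 1.11, Tk1, thymidine kinase, by 0.88 and Mcm7, a part of the replicative helicase, by 0.84. At 1 ng/mL 5 of 16 rose and at 10 ng/mL 9 of 16, both against the same SCF libraries, where 1.89% and 3.78% of all genes were called higher. The summed level of the 16 genes was 1480 and 1863 CPM with SCF at 0 ng/mL, 2358 and 3035 CPM at 1 ng/mL and 2568 and 3049 CPM at 10 ng/mL, so that the groups with and without TGF-β did not overlap. The count depended on single libraries: it was 3 of 16 without SCF replicate 1, 7 of 16 without replicate 2 of either group with SCF and TGF-β, and 6 of 16 by DESeq2. At 1 ng/mL it was 0 without SCF replicate 1 and 1 without the second 1 ng/mL library, and at 10 ng/mL it was 3 without SCF replicate 1 or without the second 10 ng/mL library.

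Without SCF, 0 of the 16 E2F targets were called in either direction by edgeR or DESeq2, with 1 at an unadjusted p under 0.05 (median 0.29, all genes -0.03), and their summed level was 1043 and 704 CPM at 0 ng/mL, 837 CPM at 1 ng/mL and 1265 CPM at 10 ng/mL. SCF against IL-3 raised 10 of 16, among them Rrm2 by 1.87 and Ccna2 by 1.72, a count that was 3 without IL-3 replicate 2 and 4 without SCF replicate 2. All 16 were called higher with SCF and TGF-β than with TGF-β alone, with a median of 1.38 (all genes 0.00). Of all genes, 13.4% were called higher there, and 5.71% with SCF against IL-3. No E2F target passed the interaction test in edgeR or DESeq2, with 4 of 16 at an unadjusted p under 0.05; all 16 estimates were above 0 with a median of 0.53 (all genes 0.02).

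**Figure D4:**
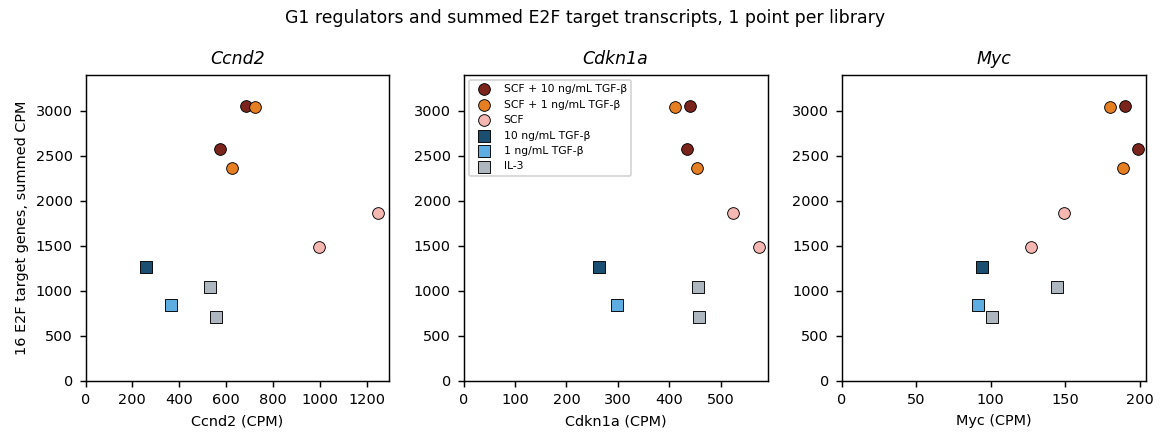
Summed CPM of 16 E2F target genes against the CPM of Ccnd2, Cdkn1a and Myc, 1 point per library, coloured by group (circles with SCF, squares without). The 4 libraries with SCF and TGF-β hold the highest sums, 2358 to 3049 CPM, at 575 to 724 CPM of Ccnd2, while the 2 SCF libraries reach 1480 and 1863 CPM at 998 and 1248 CPM of Ccnd2.

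Of 25 other tested genes of the G1 machinery, 2 rose and 0 fell when TGF-β was added to SCF, a share near the 9.26% of all genes called there (3.92% higher). Rbl1, the retinoblastoma relative p107, changed by 1.31 ± 0.28 and Cdk2, the kinase partner of E and A cyclins, by 0.66 ± 0.18 (edgeR adjusted p = 0.00540 and 0.0277). The count was 0 without SCF replicate 2, 1 without SCF replicate 1 or without the second library of either SCF and TGF-β group, 4 without IL-3 replicate 1 and 1 by DESeq2. Without SCF 0 of the 25 were called by edgeR or DESeq2, 2 at an unadjusted p under 0.05, and 1 by edgeR without IL-3 replicate 1. With SCF against IL-3, 5.71% of all genes were called higher and 3.47% lower. Among the 25 genes SCF raised E2f3 (1.89) and Cks1b (1.33) and lowered Rb1 (-0.89) and Rbl2 (-0.87), both members of the retinoblastoma family. None of these 4 calls held without IL-3 replicate 2 or without SCF replicate 2, and 4 genes were higher without IL-3 replicate 1. With SCF and TGF-β against TGF-β alone, 9 of 25 were higher, led by Ccne1 (2.55) and Ccne2 (2.33), the E cyclins that follow the D cyclins in late G1. The 3 that were lower are near the share of all genes called lower there, 11.4%, while 13.4% of all genes were called higher. The number higher was 1 without the 1 ng/mL library of TGF-β alone.

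**Figure D5:**
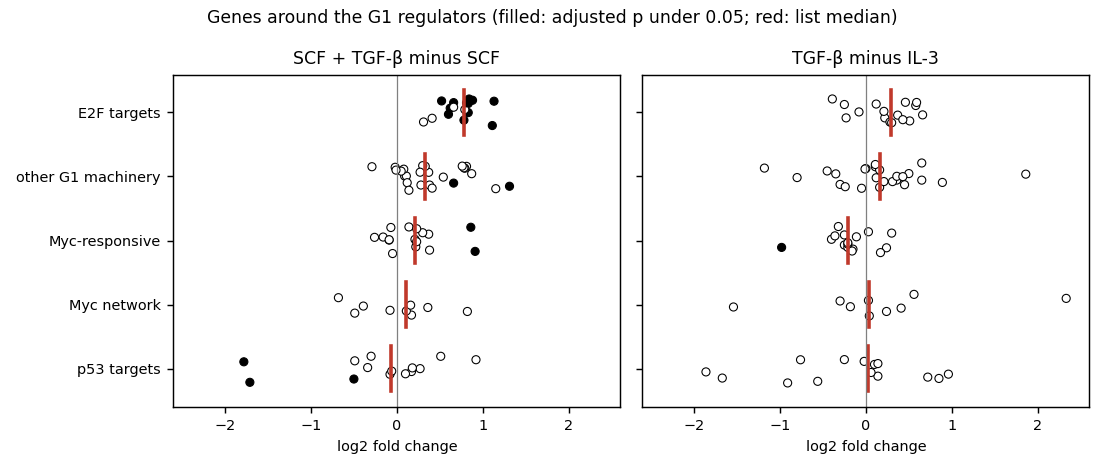
Log2 fold change of each gene in 5 lists around the G1 regulators, with TGF-β added to SCF (left) and to IL-3 (right); filled points have an edgeR adjusted p under 0.05, red bars are list medians and the vertical spread is for legibility only. With SCF, 12 of 16 E2F targets are filled on the right of 0; without SCF none of them are.

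The p53 target list was looked at because Cdkn1a is a p53 target. Of 14 tested genes, 0 rose and 3 fell when TGF-β was added to SCF: Gdf15, a stress cytokine, by -1.78, the antiproliferative Btg2 by -1.71 and the apoptosis gene Bax by -0.50 on the log2 scale. The list median was -0.07 (all genes 0.00), 5.34% of all genes were called lower, and the count was 1 without SCF replicate 1 and 1 by DESeq2. Without SCF 0 of the 14 were called by edgeR or DESeq2, with 4 at an unadjusted p under 0.05 (median 0.02), and Cdkn1a itself fell there. SCF against IL-3 raised 4 of 14, Ccng1 (1.05), Mdm2 (0.73), Zmat3 (0.69) and Bax (0.69), against 5.71% of all genes; the count was 1 without IL-3 replicate 1 or SCF replicate 2, and 2 without the other library of either group and by DESeq2. With SCF and TGF-β against TGF-β alone, 5 of 14 were higher (13.4% of all genes), among them Phlda3 (1.91) and Mdm2 (0.90), and 2 were lower (11.4% of all genes), Btg2 (-2.95) and Gdf15 (-2.06). The number higher was 2 without the 1 ng/mL library of TGF-β alone. Btg2 was the 1 gene of the list called in the interaction (-2.67, edgeR adjusted p = 0.0414). Over the 10 fits without 1 library the adjusted p ran from 0.0160 to 0.335, and the call was kept in 3, those without SCF replicate 2 or without replicate 1 of either SCF and TGF-β group.

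Myc-responsive growth genes and the Myc network were compared beside Myc. Of 16 tested growth genes, 2 rose with TGF-β added to SCF, Cad by 0.91 ± 0.21 and Odc1 by 0.86 ± 0.26, which start pyrimidine and polyamine synthesis, and 1 fell with TGF-β without SCF, the polyamine gene Srm by -0.98 ± 0.20 (edgeR adjusted p = 0.00976, 0.0456 and 0.00897). The list medians were 0.22 with SCF and -0.21 without, against all-gene medians of 0.00 and -0.03. Of all genes, 3.92% were called higher with SCF and 2.13% lower without. With SCF the count was 0 without SCF replicate 1 and by DESeq2 and 1 in 6 of the other fits without a library (all but SCF and 10 ng/mL TGF-β replicate 2 and the 2 libraries of TGF-β alone). Srm lost its call without IL-3 replicate 1 and without the 1 ng/mL library. Of the 9 genes tested in the Myc network, 0 were called with TGF-β in either series by edgeR or DESeq2, with 1 at an unadjusted p under 0.05 with SCF and 3 without. Mxd3 was raised by SCF against IL-3 (1.15; not called without IL-3 replicate 1 or SCF replicate 2), and with SCF and TGF-β against TGF-β alone Mxd3 was higher (1.80) and Mxi1 (-1.98) and Mxd4 (-0.67) were lower. All 3 encode repressors that compete with Myc for its partner Max. The Mxi1 and Mxd4 calls were lost without either library of TGF-β alone and in DESeq2.

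Across the 10 libraries, some members varied together. Pearson's r of log2 CPM was 0.95 between Ccnd2 and Ccnd3, 0.91 between Ccnd2 and Cdkn1a and 0.91 between Cdk6 and Myc. Cdkn1b ran the other way, at -0.94 with Cdk4, -0.87 with Cdk6 and -0.84 with Myc. These are descriptions over 10 libraries that fall into 6 groups and share treatment and depth. Among 6115 other genes that averaged 20 CPM or more, the pattern most like Ccnd2 was that of Nabp1 (r = 0.995), followed by Cnn2 (0.983) and Cdc42 (0.976). For Ccnd3 it was Cdipt (0.990), for Cdk6 Car13 (0.977), for Cdkn1a Ccl7 and Lgals1 (0.958 each), for Cdkn1b Sbds (0.975) and for Myc Ttf2 (0.974).

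The member genes lie on several chromosomes of GRCm38 (GENCODE vM21): Ccnd2 at 6:127125162-127152193 (minus strand), Cdkn1a at 17:29090976-29100727 (plus), Cdkn2b at 4:89306299-89311039 (minus), Cdkn1b at 6:134920401-134925513 (plus) and Myc at 15:61985391-61990374 (plus). Counts are of whole genes, so no exon or isoform can be singled out. Ccnd1, Ccnd2, Ccnd3, Cdk4, Cdk6, Cdkn1a and Cdkn1c overlap an annotated gene on the other strand (for Cdk4 it is Tspan31, for Ccnd3 Bysl). Whether counting used strand is not given in the sources used here, so reads of such partners cannot be told apart from theirs; Cdkn1b, Cdkn2b and Myc have no overlapping gene.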

How the data were processed

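Paired-end RNA sequencing of 10 BMMC libraries was deposited by the authors as a table of raw read counts per Ensembl gene; STAR, HTSeq, DESeq2 and builds GRCm38 and mm10 are named in the submitters' processing notes, per the labels, with their roles not given. Genes took 16.4 to 26.6% of all counted reads; the rest lay in 5 rows that name no gene and were left out of library sizes. Symbols came from GENCODE vM21 (49412 of 49671 IDs matched). The counts were fitted with edgeR 4.0.16 (R 4.3.3): TMM scaling, filterByExpr (minimum count 10, total 15), 6 group means over 10 libraries with 4 residual degrees of freedom, a quasi-likelihood test in 8 comparisons and Benjamini-Hochberg adjustment over 11247 genes, called at an adjusted p under 0.05. Beside those 4 residual degrees of freedom, edgeR used 12.9 prior degrees of freedom, from a spread shared over all genes. Both TGF-β doses were averaged in the pooled comparisons. Each dose without SCF had 1 library, so the error in those comparisons comes from the groups with 2 libraries. Leaving out either library of TGF-β alone also leaves a single dose without SCF, so dose and library change together in those fits. The fit was also run on simulated counts with changes in the SCF group only. That run does not cover the groups with 1 library, the interaction or changes in genes with low counts. Intervals on summed reads and floors of 3 counts cover counting error only. Alternatives were DESeq2 1.42.0 (its size factors, and its test), no filter, a replicate block and each library left out. Named list genes are the up to 4 called genes of a list with the largest changes, in either direction. The members and lists were chosen with earlier results of these data known. Replicates of a group correlated at 0.955 to 0.968 and differed by more than sampling noise, so none was merged.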

Additional observations from a re-analysis of the deposited data

How the results depend on the processing

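Of 279 log2 changes of single members under alternatives that kept every library, 264 kept their direction and their side of the threshold, and of 720 without 1 library, 655 did. DESeq2's size factors changed no count of calls by more than 1.5 times and shifted the median of all genes by at most 0.009 (log2). DESeq2's test called fewer genes: 471 for SCF against IL-3, 270 for 1 ng/mL with SCF, 438 for 10 ng/mL with SCF, 532 for both doses, 0 between the doses, 225 for TGF-β without SCF and 1518 for SCF added to TGF-β. Without a filter on low counts, 2 members were called for both doses with SCF and 1 in the interaction, and 8 genes between the doses, 601 for TGF-β without SCF and 125 in the interaction.

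The replicate block called 3 members at 1 ng/mL with SCF and 4 at 10 ng/mL and for both doses (Ccnd3 and Cdkn1a joined Ccnd2, and Myc at the last 2), with 860 genes at 1 ng/mL, 5 between the doses, 725 for TGF-β without SCF and 103 in the interaction. The deviations of same-numbered libraries correlated at 0.197 to 0.231 among the SCF groups but at -0.003 to 0.022 with IL-3, and no label gives the numbers a meaning. The cause of these differences was not tested.

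Leaving out each library in turn gave members called of 1 to 3 for SCF against IL-3, 0 to 1 for 1 ng/mL with SCF, 1 to 2 for 10 ng/mL with SCF, 1 to 2 for both doses with SCF, 0 to 3 for TGF-β without SCF. The same fits gave genes called of 237 to 1055 for SCF against IL-3, 252 to 540 for 1 ng/mL with SCF, 447 to 952 for 10 ng/mL with SCF, 517 to 1057 for both doses with SCF, 0 to 5 for 10 against 1 ng/mL with SCF, 143 to 441 for TGF-β without SCF, 1278 to 2799 for SCF added to TGF-β, 0 to 30 for the interaction. Some log2 changes crossed 0 in these fits. Not all were near 0 with every library: Cdkn2b was 1.25 in the interaction, and without SCF Cdkn2b was -0.55 and Cdk6 -0.36 with TGF-β. Their signs depended on 1 library. For Cdkn2b it was the 10 ng/mL library without SCF, and leaving it out also leaves 1 ng/mL as the only dose there. The ranges were, for SCF against IL-3, Myc -0.06 to 0.45. With SCF they were, at 1 ng/mL, Cdk4 -0.12 to 0.05 and Cdkn1b -0.85 to 0.10, at 10 ng/mL Cdkn1b -0.65 to 0.50, and for both doses Cdk4 -0.16 to 0.00 and Cdkn1b -0.50 to 0.30. For 10 against 1 ng/mL with SCF they were Ccnd1 -0.30 to 0.07, Ccnd2 -0.23 to 0.02, Ccnd3 -0.09 to 0.07, Cdk4 -0.20 to 0.03, Cdk6 -0.04 to 0.05, Cdkn1a -0.06 to 0.08, Cdkn1b -0.31 to 0.91 and Cdkn2b -0.02 to 0.09. For TGF-β without SCF they were Ccnd1 -0.91 to 0.36, Cdk4 -0.17 to 0.05, Cdk6 -0.72 to 0.15 and Cdkn2b -1.85 to 0.75. In the interaction they were Ccnd1 -0.89 to 0.38, Ccnd2 -0.22 to 0.29, Ccnd3 -0.09 to 0.15, Cdk4 -0.12 to 0.09 and Cdkn2b -0.05 to 2.55. In the interaction Cdk4 was 0.01 without the filter. With 1 library for each TGF-β dose without SCF and 2 in every other group, small changes of Ccnd1 and Cdkn2b were beyond what this depth can show. For Cdkn1b the libraries of a group lay far apart. Without SCF its 120 reads with TGF-β and 97 with IL-3 gave a depth-scaled ratio of 1.68 (95% exact counting interval 1.28 to 2.22), but the 2 IL-3 libraries stood at 19.6 and 41.2 CPM.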
